A study of Homo sapiens with 6 samples.

Results

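The genes described here are 46 genes of protein folding, N-glycan processing and quality control in the endoplasmic reticulum (ER), together with the sensors of the unfolded protein response. They were chosen by symbol, and all 46 of them were found among the 30618 genes of the count data, 12 as ER lumen chaperones and cofactors, 9 as disulfide isomerases and oxidases, 12 as N-glycan transfer and trimming enzymes, 9 as ER-associated degradation genes and 4 as sensors and transcription factors. ARPE-19 is a spontaneously immortalized line of human retinal pigment epithelium. The RNA-seq libraries came from ARPE-19 cells kept in 50 mM glucose, a culture model of diabetic retinopathy, that received either a non-targeting siRNA (NC, 3 libraries) or an siRNA against the translation initiation factor EIF1 (siEIF1, 3 libraries). High glucose was common to both groups, no library from normal glucose was part of the comparison, and the methods print a single siRNA for EIF1 and no osmotic control. The methods describe the replicates as independent biological replicates.

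Secreted and membrane proteins enter the ER unfolded. In the lumen the Hsp70 chaperone BiP (gene HSPA5) and the Hsp90 family member GRP94 (HSP90B1) hold them, disulfide isomerases form and rearrange their cysteine bonds, and the oligosaccharyltransferase adds a glycan that the glucosidases then trim so that calnexin and calreticulin can bind. Proteins that fail to fold are trimmed by mannosidases and exported for degradation through the SEL1L and SYVN1 ubiquitin ligase complex. When unfolded protein accumulates, IRE1 (ERN1), ATF6 and PERK (EIF2AK3) respond, and the transcription factors XBP1 and ATF6 raise the genes of these same steps. Retinal pigment epithelium is a secretory and phagocytic tissue that depends on this machinery.

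The best known DNA element of this response is the ER stress response element (ERSE), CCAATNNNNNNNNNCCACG, which is bound by NF-Y and ATF6. Shorter elements are ERSE-II, ATTGGNCCACG, and the unfolded protein response element (UPRE), TGACGTGG. Promoter sequences from RefSeq (GRCh38.p14), from 250 bases before to 50 bases after a gene's start, were found for 40 of the 46 genes, in 49 windows. The other 6 were DERL1, DERL3, MOGS, PDIA3, RPN1 and STT3B. Searched on both strands, ERSE was present in 8 of these 40 genes (20%) and in 25 (0.0916%) of all 27305 genes with promoter sequences. ERSE-II was found in 3 of the 40 genes (7.5%) and in 0.0696% of all these genes, and UPRE in 1 (2.5%) and in 0.927%. The C/EBP-ATF site of amino acid response genes, TGATGNAAT, was in 0 of the 40 genes and in 0.991% of all 35116 windows. The matches are printed here because the genes that carry them include the most abundant chaperones and the XBP1 gene itself. Each line gives the promoter strand of the gene from 5′ to 3′ with the fixed letters of the element in capitals, and an element on the opposite strand therefore reads as its complement (CGTGG before ATTGG or CCAAT).
HSPA5: ttcaCCAATcggcggcctCCACGacgg
XBP1: ctggCCAATcgcggagggCCACGaccg
PDIA6: cggaCCAATgagccgcagCCACGgctt
CANX: ccggCCAATcttcacactCCACGaaga
HSP90B1: ctgaCCAATcggaaggagCCACGcttc
CALR: cacgCGTGGtcgaccatcATTGGtcgg
CRELD2: ctctCGTGGcgaactcggATTGGgcca
ERO1B: cccgCGTGGtcccgcctcATTGGccgc
HERPUD1: ggacgccgATTGGgCCACGttgggaga
HYOU1: ccccgtgaCGTGGtCCAATcccaggcc
SDF2L1: ctcggaagCGTGGaCCAATcaaaaccc

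The first 8 lines are ERSE matches and the last 3 are ERSE-II matches. Each ERSE line holds 4 further bases on either side of the element, and each ERSE-II line 8. The HSPA5 element lies at chr9:125241391-125241409 with its first base 66 bases before the RefSeq start, and that of XBP1 at chr22:28800603-28800621, 52 bases before the start, each in a gene on the reverse strand. The CALR element (chr19:12938384-12938402, 225 bases before the start), the HERPUD1 element (chr16:56932025-56932035, 117 bases) and the CRELD2 element (chr22:49918554-49918572, 80 bases) belong to genes on the forward strand. These distances are from the RefSeq starts. They lie 39 bases (HSPA5), 28 bases (XBP1), 31 bases (CALR) and 467 bases (CRELD2) downstream of the outermost GENCODE start. The CRELD2 element therefore lies within the gene as GENCODE draws it. So do the elements of HSP90B1, PDIA6 and CANX. Their RefSeq starts lie 303 bases (HSP90B1), 25192 bases (PDIA6) and 20159 to 20339 bases (CANX) downstream. HSP90B1 held another ERSE at 89 bases before the start, and HYOU1 another ERSE-II at 79 bases. The UPRE of HYOU1 began 188 bases before the start and overlapped the ERSE-II printed above, which began at 185 bases.

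The libraries held from 26499929 to 31431479 counts, and genes of the ER list took between 0.791% and 0.878% of them. FPKM of EIF1 was between 281 and 294 in the NC and between 22.7 and 24.3 in the siEIF1 libraries (8.22% of the NC mean). Of 14 markers of retinal pigment epithelium 4 reached a mean FPKM of 1, namely BEST1, MITF, OTX2 and SERPINF1. TYR and DCT were at or below 0.0067 in each group. RPE65 and TTR were not found by symbol among the genes of the count data. BEST1 shares 1267 exon bases (14.6%) with FTH1 on the opposite strand. FTH1 had a mean count of 139940, against 18111 for BEST1, and a log2 fold change of -0.185 (adjusted p = 0.0248, edgeR). How the BEST1 reads were assigned is therefore uncertain. The photoreceptor, endothelial and immune marker lists each summed to at most 1.01 FPKM in any library. Of 3 epithelial keratins 2 rose, and of 4 fibroblast and mesenchymal markers 2 rose. The keratins summed to between 426 and 450 FPKM in the NC and between 499.5 and 522 FPKM in the siEIF1 libraries, and the mesenchymal markers, nearly all VIM, to between 826 and 850 FPKM and between 1002 and 1068 FPKM. Of 4 Mueller glia markers, 3 of them found in the data, 2 rose, namely GLUL (log2 fold change 0.18) and RLBP1, which is also on the pigment epithelium list and was the marker of that list that rose (log2 fold change 1.55, from 0.237 to 0.68 FPKM). The glia list summed to between 7.54 and 7.80 FPKM in the NC and between 8.48 and 9.41 FPKM in the siEIF1 libraries. The keratin, mesenchymal and glia sums thus moved with the group, and their part in the results was not tested. The pigment epithelium sums overlapped, at 88.0 to 97.5 FPKM in the NC and 67.2 to 90.5 FPKM in the siEIF1 libraries. They were mostly BEST1, at 60.5 to 70.8 FPKM in the NC and 38.8 to 62.1 FPKM in the siEIF1 libraries. Their overlap therefore says little about the other markers of that list. OTX2, the next in level, was without overlap, at 17.5 to 18.2 FPKM and 18.4 to 19.2 FPKM (log2 fold change 0.096, adjusted p = 0.176, edgeR). The photoreceptor, endothelial and immune sums overlapped as well.

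The question asked of the ER genes was whether they changed together after EIF1 knockdown. They did not move in one direction. Of the 46 genes, all tested, 21 (45.7%) passed an adjusted p of 0.05 (edgeR quasi-likelihood fit, Benjamini-Hochberg over the 16749 genes tested), against 20.6% of all tested genes. Higher in the siEIF1 group were 11 of them (background 10.2%) and lower were 10 (background 10.4%). The median log2 fold change of the 46 genes was -0.0081, beside 0.0033 for all tested genes. In 29 of the 46 (63%) the scaled counts (CPM) of the groups did not overlap, against 37.1% of all tested genes. Well-counted genes pass such a test more easily, and 42 of the 46 had a mean count of at least 500. Among these 42, 19 (45.2%) were called, against 28.6% of the 8028 tested genes at that depth, and 27 (64.3%) were without overlap, against 46.8%. This depth limit was chosen after the values were seen, and the 46 genes themselves with earlier results of these data known. The shares are therefore a description and not a test of the list. With a further limit of a fold change above 2 or below 0.5, which the study's methods set, 1 gene remained, DERL3, against 1.71% of all tested genes. The changes were thus mostly smaller than that limit, with log2 fold changes of called genes from -1.16 to 0.86. On log2(FPKM + 1) values with limma, 10 genes were called higher and 3 lower, so that PDIA3 and 7 of the genes that fell (HSPA5, HYOU1, UGGT2, EDEM3, SEL1L, XBP1 and ERN1) lost their call there. In bulk libraries, fewer cells that express a gene and less of its RNA per cell cannot be told apart.

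**Figure D1:**
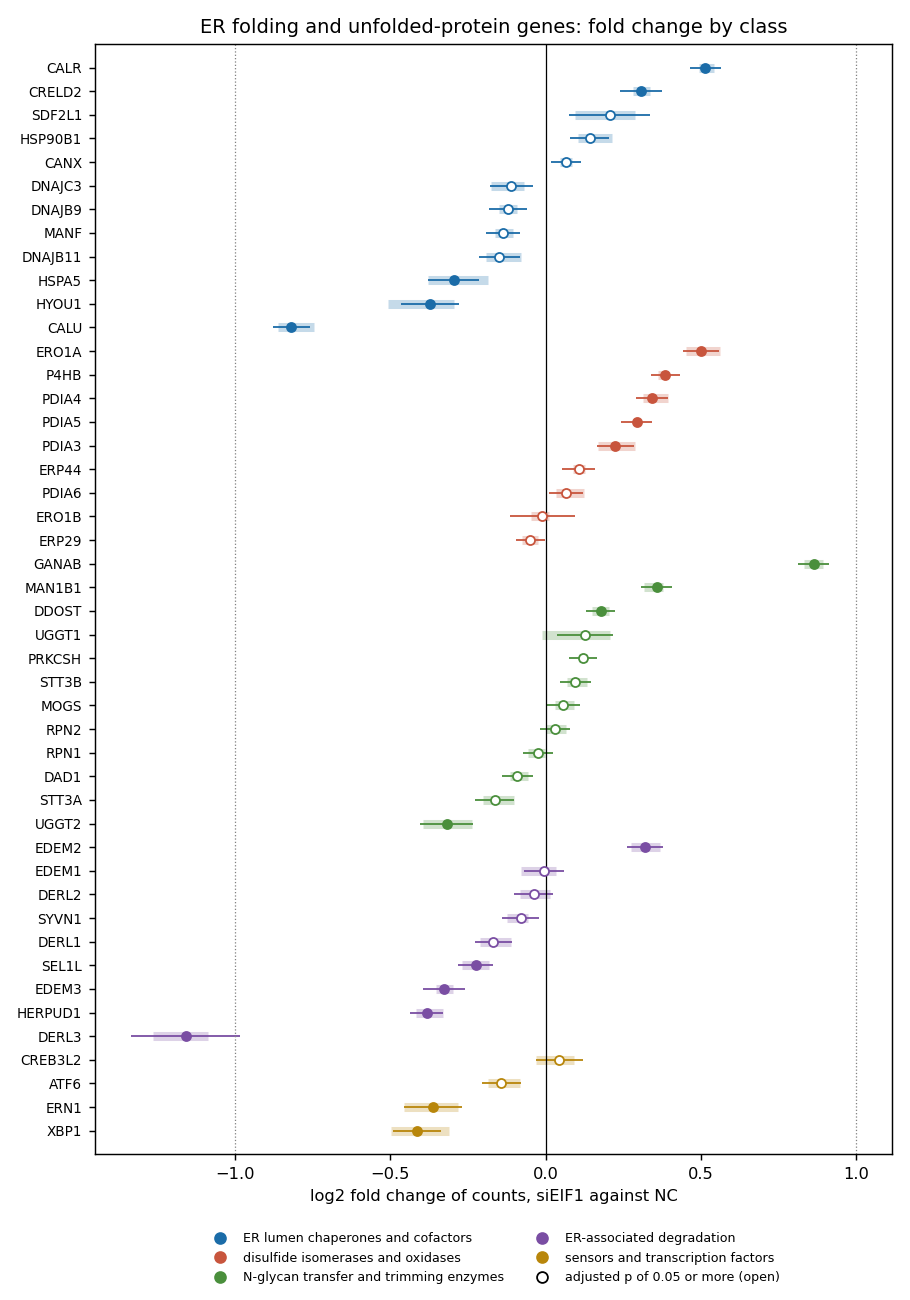
Log2 fold change of counts, siEIF1 against NC, for each of the 46 genes, grouped by class; points are the edgeR estimates, thin bars 1 standard error and wide pale bands the range when each of the 6 libraries is left out in turn. Filled points have an adjusted p under 0.05, dotted lines mark log2 fold changes of -1 and 1, and the disulfide isomerases lie mostly to the right of 0 while degradation genes and sensors lie mostly to its left.

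**Figure D2:**
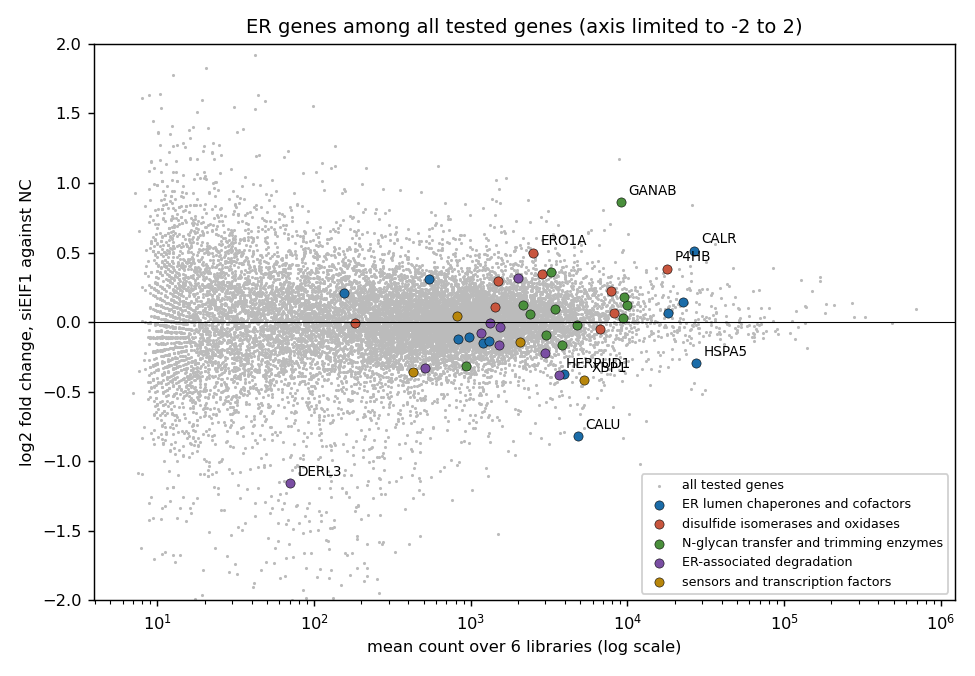
Log2 fold change (siEIF1 against NC) against the mean count over 6 libraries (log scale) for the 16749 tested genes in grey and the 46 ER genes in color by class, with the vertical axis limited to -2 to 2. The ER genes lie mostly at high counts, where GANAB, CALR and ERO1A stand above and CALU, XBP1 and HSPA5 below most genes of like count.

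The counts per class given below were not tested against a background. The called shares were 41.7% of chaperones, 55.6% of disulfide isomerases, 33.3% of glycan enzymes, 55.6% of degradation genes and 50% of sensors. Beside these, 20.6% of all tested genes and 28.6% of those at 500 counts or more were called. Among the 12 chaperones and cofactors, 2 rose, 3 fell and 7 did not pass the test, with a median log2 fold change of -0.12. BiP itself fell. HSPA5 (ENSG00000044574, chr9:125234853-125241382 on GRCh38) had an FPKM of 152, 117 and 128 in NC replicates 1 to 3 and of 108, 97.0 and 114 in siEIF1 replicates 1 to 3. The groups did not overlap, but the highest siEIF1 library lay close under the lowest NC library. Its counts fell by 18.6% (log2 fold change -0.30, standard error 0.081, adjusted p = 0.0199). Without NC replicate 1, the highest library, the log2 fold change was -0.18 (adjusted p = 0.0846), and without siEIF1 replicate 2, the lowest, it was -0.25 (adjusted p = 0.0996).

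HYOU1, the ER Hsp110 that serves as a nucleotide exchange factor for BiP, had an FPKM of 17.6, 14.6 and 16.8 in the NC and of 11.1, 11.3 and 14.99 in the siEIF1 libraries. The groups overlapped, since siEIF1 replicate 3 exceeded NC replicate 2. The log2 fold change was -0.37 (standard error 0.093, adjusted p = 0.0125), and the call was lost with DESeq2 (adjusted p = 0.065) and when NC replicate 1 (adjusted p = 0.069) or siEIF1 replicate 2 (adjusted p = 0.0694) was left out. HYOU1 shares 667 exon bases with a noncoding gene on the opposite strand, ENSG00000255114, whose log2 fold change was -0.80 at a mean count of 111.0.

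CALU had the lowest log2 fold change of the chaperone class. It encodes calumenin, a calcium-binding protein of the secretory pathway, at chr7:128739292-128773400. Its FPKM was 30.5, 26.1 and 26.9 in the NC libraries and 15.8, 14.6 and 16.3 in the siEIF1 libraries. Every siEIF1 library lay far below every NC library, and the counts fell by 43.3% (log2 fold change -0.82, standard error 0.061, adjusted p = 1.32e-06). The estimate stayed between -0.86 and -0.75 whichever library was left out.

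CALR moved the other way. Calreticulin, the soluble lectin chaperone that binds monoglucosylated glycans, is encoded at chr19:12938578-12944489 and was the most abundant of the 46 transcripts per length. Its FPKM was 222, 222 and 220 in the NC and 321, 308 and 305 in the siEIF1 libraries. The NC libraries were nearly equal and all siEIF1 libraries stood above them, a rise of 42.8% (log2 fold change 0.51, standard error 0.05, adjusted p = 1.18e-05). CRELD2, a protein of the ER and secretory pathway induced by ER stress, had an FPKM of 2.65, 2.72 and 2.60 in the NC and of 3.33, 3.21 and 3.18 in the siEIF1 libraries. It rose by 0.31 on the log2 scale (standard error 0.068, adjusted p = 0.00595), without overlap between the groups.

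The membrane-bound homolog of calreticulin, CANX, had a log2 fold change of 0.066 (adjusted p = 0.371), and GRP94 (HSP90B1) one of 0.14 (adjusted p = 0.135). HSP90B1 passed the threshold without NC replicate 1, at 0.21 (adjusted p = 0.0279). The BiP cochaperones DNAJB9, DNAJB11 and DNAJC3, which stimulate its ATPase, had log2 fold changes of -0.12, -0.15 and -0.11, and the secreted neurotrophic factor MANF had -0.14. None of these 4 passed the test, with adjusted p-values from 0.10 to 0.294 (edgeR), and DNAJB9, DNAJB11 and MANF were without overlap between the groups on the CPM scale. SDF2L1, a cofactor of DNAJB11, had a log2 fold change of 0.21 at a mean count of 156.0 (standard error 0.13, adjusted p = 0.304).

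**Figure D3:**
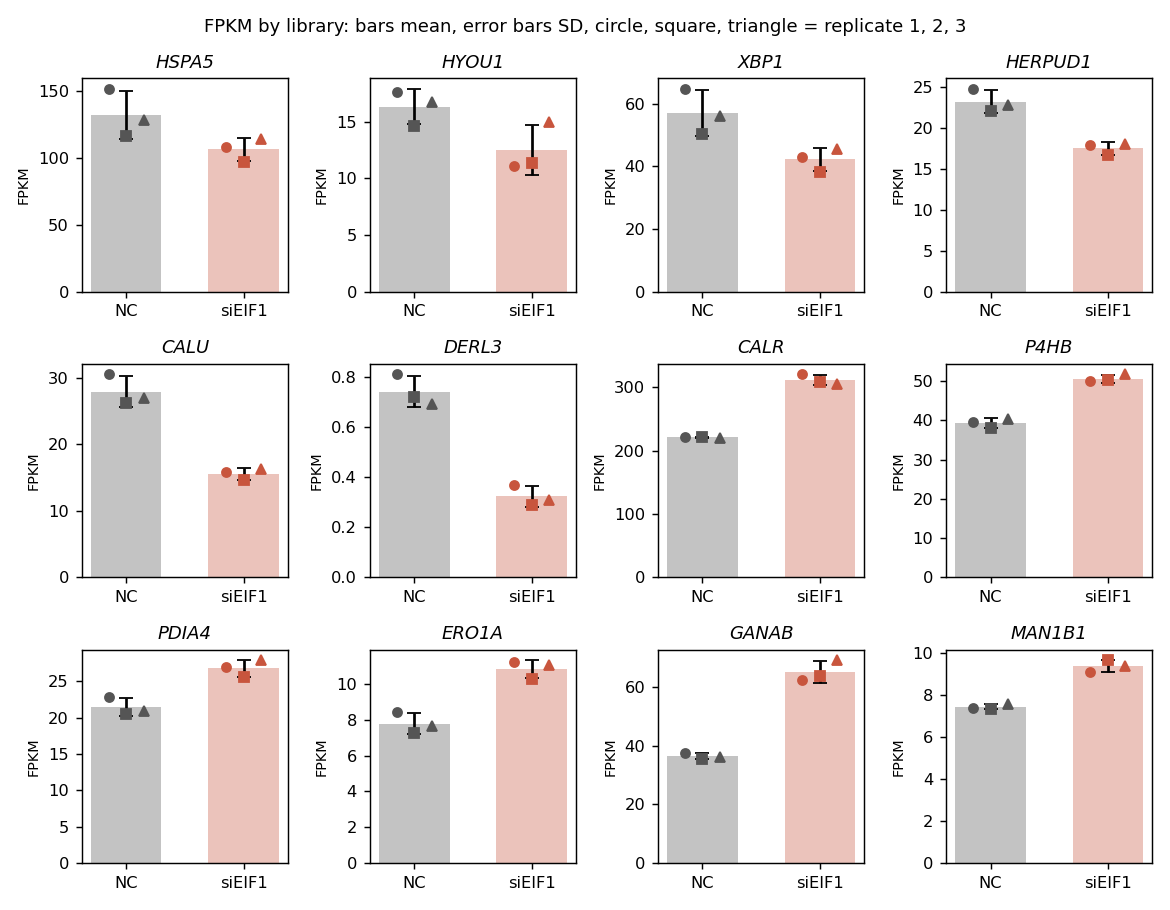
FPKM of 12 of the genes in each library, with circles, squares and triangles for replicates 1, 2 and 3, bars for the group mean and error bars for the SD (n = 3). HSPA5 and XBP1 are highest in NC replicate 1 and the NC and siEIF1 ranges of HYOU1 overlap, whereas those of CALU, CALR and GANAB are far apart.

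Among the disulfide isomerases and oxidases every called gene rose. Of the 9 genes, 5 rose and 0 fell by edgeR, and 0 fell by DESeq2 or at an unadjusted p under 0.05. The median log2 fold change of the 9 genes was 0.22. Of 13 other disulfide isomerases and oxidoreductases, given further below, 1 was called (7.69%). P4HB, the archetypal protein disulfide isomerase and the beta subunit of prolyl 4-hydroxylase, had an FPKM of 39.6, 38.0 and 40.4 in the NC and of 49.9, 50.2 and 51.8 in the siEIF1 libraries, a rise of 30.5% (log2 fold change 0.38, standard error 0.047, adjusted p = 8.46e-05). PDIA4 (ERp72) had an FPKM of 22.8, 20.5 and 20.9 against 26.9, 25.6 and 27.9, and a log2 fold change of 0.34 (standard error 0.053, adjusted p = 4.95e-04). In PDIA5 the libraries lay close together within each group, at 9.27 to 9.40 FPKM in the NC and 11.0 to 11.6 in the siEIF1 group (log2 fold change 0.29, standard error 0.049, adjusted p = 9.40e-04). All siEIF1 libraries exceeded all NC libraries for these isomerases. PDIA5 shares 12.0% of its exon bases with SEC22A on the same strand, which had a log2 fold change of -0.057.

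ERO1A, the flavoenzyme that reoxidizes protein disulfide isomerase, rose most in the class. Its FPKM was 8.44, 7.26 and 7.66 in the NC libraries and 11.2, 10.3 and 11.1 in the siEIF1 libraries, a rise of 41.4% (log2 fold change 0.50, standard error 0.058, adjusted p = 5.74e-05). Its paralog ERO1B, the form typical of secretory endocrine cells, stayed at a mean of 0.90 and 0.883 FPKM (log2 fold change -0.010, adjusted p = 0.963). PDIA3 (ERp57), the isomerase that works with calnexin and calreticulin, had the smallest called change in the class (log2 fold change 0.22, adjusted p = 0.0173). The PDIA3 call was lost when NC replicate 2, NC replicate 3 or siEIF1 replicate 1 was left out, with adjusted p-values up to 0.0991. PDIA6, ERP44 and ERP29 had log2 fold changes of 0.066, 0.11 and -0.049 and did not pass the test. PDIA6 shares 25.2% of its exon bases with ATP6V1C2 on the opposite strand.

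Of the 12 genes of glycan transfer and trimming, 3 rose, 1 fell and 8 did not pass the test, with a median log2 fold change of 0.076. GANAB rose most of the 46. It encodes the catalytic alpha subunit of glucosidase II, which removes the inner glucoses of the transferred glycan, at chr11:62624826-62646726. Its FPKM was 37.4, 35.4 and 36.1 in the NC libraries and 62.3, 63.8 and 69.3 in the siEIF1 libraries. The lowest siEIF1 library was far above the highest NC library, and the rise was 81.8% (log2 fold change 0.86, standard error 0.05, adjusted p = 3.77e-07). Left-out libraries moved the estimate between 0.83 and 0.89. No exon of another annotated gene overlaps the GANAB exons.

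The regulatory beta subunit of the same enzyme, PRKCSH, had an FPKM of 51.0, 51.9 and 53.4 in the NC and of 54.8, 55.2 and 57.5 in the siEIF1 libraries (log2 fold change 0.12, standard error 0.045, adjusted p = 0.0792). Glucosidase I (MOGS), which acts first, had a log2 fold change of 0.057 (adjusted p = 0.497). MAN1B1, the ER alpha-mannosidase that marks slow-folding glycoproteins, had an FPKM of 7.40, 7.36 and 7.60 against 9.13, 9.70 and 9.40, a log2 fold change of 0.36 (standard error 0.049, adjusted p = 2.08e-04). UGGT2, a homolog of the folding sensor UGGT1 that adds glucose back, fell from 4.06, 3.62 and 3.32 FPKM to 3.03, 2.53 and 3.15 FPKM. Its log2 fold change was -0.32 (standard error 0.086, adjusted p = 0.0182), and the call was lost without NC replicate 1, NC replicate 2 or siEIF1 replicate 2, with adjusted p-values up to 0.0933. UGGT1 had an FPKM of 5.25, 4.69 and 5.42 in the NC and of 4.88, 5.02 and 6.65 in the siEIF1 libraries, with siEIF1 replicate 3 above all others (log2 fold change 0.13, adjusted p = 0.371).

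The oligosaccharyltransferase subunits changed little, with log2 fold changes from -0.16 to 0.18. DAD1, RPN2 and DDOST were the most abundant of them, with NC means of 117, 98.0 and 92.9 FPKM. STT3A and STT3B had lower NC means of 15.7 and 18.8 FPKM. DDOST rose, from 92.6, 92.9 and 93.0 FPKM to 104, 105 and 102 FPKM (log2 fold change 0.18, standard error 0.048, adjusted p = 0.0181), and the call was lost without NC replicate 2 (adjusted p = 0.0564), NC replicate 3 (adjusted p = 0.089) or siEIF1 replicate 2 (adjusted p = 0.0889). DDOST shares 15.7% of its exon bases with the noncoding gene PINK1-AS on the same strand. PINK1-AS had a mean count of 3191 and a log2 fold change of 0.135 (adjusted p = 0.126, edgeR). RPN1, RPN2 and DAD1 had log2 fold changes of -0.024, 0.031 and -0.092. The catalytic subunits STT3A, which works with the translocon, and STT3B, which glycosylates skipped sites, had log2 fold changes of -0.16 (adjusted p = 0.0811) and 0.095 (adjusted p = 0.21).

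**Figure D4:**
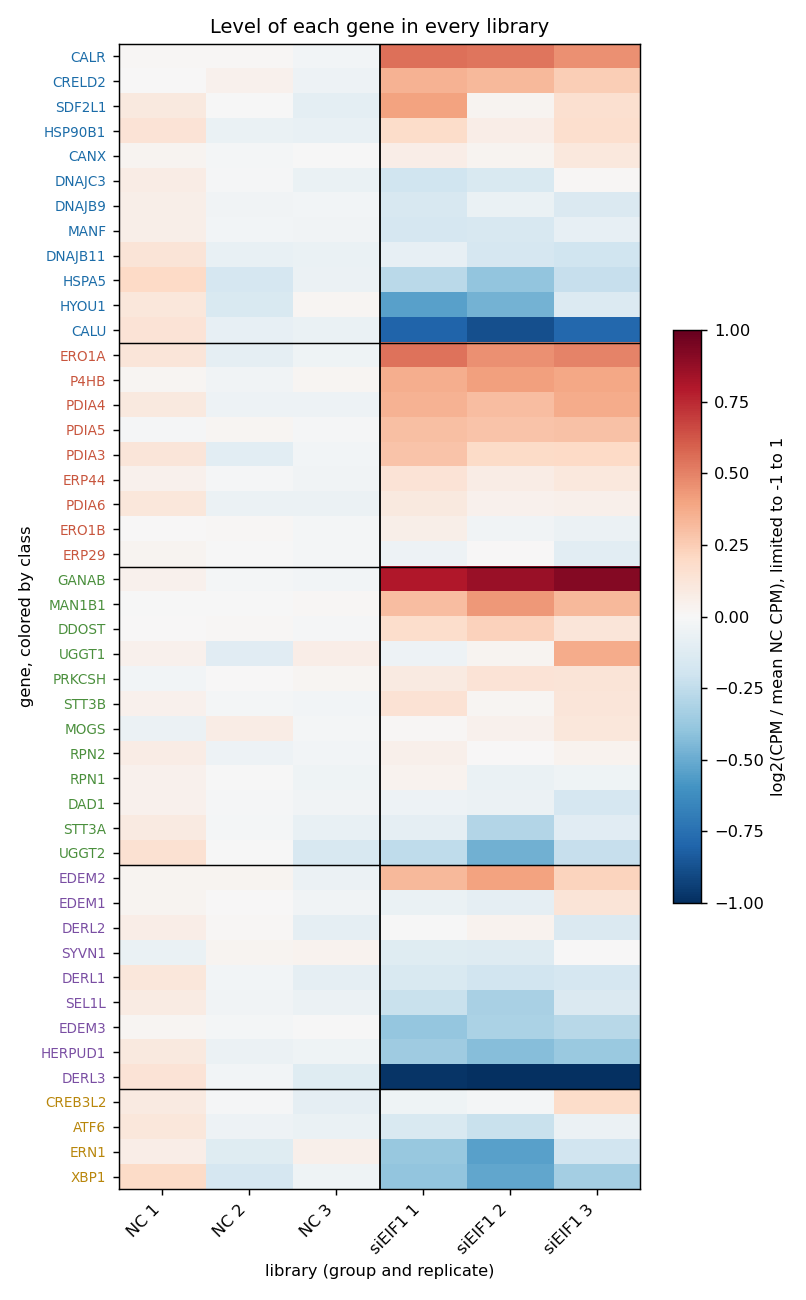
Level of each of the 46 genes (rows, colored by class) in each of the 6 libraries (columns), as log2 of CPM over the mean NC CPM, with the color scale limited to -1 to 1. NC replicate 1 is redder than the other NC libraries in most rows, and the rows of GANAB, CALR, CALU and DERL3 separate the groups most clearly.

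In ER-associated degradation, 4 of the 9 genes fell, 1 rose and 4 did not pass the test, with a median log2 fold change of -0.17. HERPUD1, a ubiquitin-like membrane protein that organizes the degradation complex and is induced by ER stress, had an FPKM of 24.8, 22.1 and 22.8 in the NC libraries and 17.9, 16.7 and 18.1 in the siEIF1 libraries. The groups did not overlap, and the counts fell by 23.3% (log2 fold change -0.38, standard error 0.053, adjusted p = 2.30e-04). The call held with each library left out, at adjusted p-values up to 0.00276. SEL1L, the scaffold of the SYVN1 ligase, had an FPKM of 10.2, 9.29 and 9.35 against 8.13, 7.40 and 8.77 (log2 fold change -0.23, standard error 0.058, adjusted p = 0.0138), and its call was lost without NC replicate 1 (adjusted p = 0.0635) or siEIF1 replicate 2 (adjusted p = 0.076). The ligase SYVN1 had a log2 fold change of -0.080 (adjusted p = 0.393).

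The 3 EDEM genes, which encode mannosidase-like proteins that trim glycans on misfolded proteins, differed from each other. EDEM2, which starts mannose trimming, rose from 27.1, 26.97 and 25.99 FPKM to 33.1, 34.1 and 31.3 FPKM (log2 fold change 0.32, standard error 0.057, adjusted p = 0.00145). EDEM3 fell from 2.12, 2.04 and 2.11 FPKM to 1.57, 1.62 and 1.74 FPKM (log2 fold change -0.33, standard error 0.068, adjusted p = 0.00395). Both changes were without overlap between the groups. EDEM1 had a log2 fold change of -0.0058 (standard error 0.064, adjusted p = 0.966).

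The derlins are membrane proteins of this pathway. DERL3 had the lowest log2 fold change of the 46, -1.16 (standard error 0.18, adjusted p = 4.60e-04). It was also the least counted of them, with a mean count of 70.5 and an FPKM of 0.81, 0.72 and 0.69 in the NC and of 0.37, 0.29 and 0.31 in the siEIF1 libraries. Of its exon bases on chr22:23834503-23839128, 77% are shared with SMARCB1 on the opposite strand, which had a mean count of 1941 and a log2 fold change of 0.066 (adjusted p = 0.446), so how its reads were assigned is uncertain. DERL1 and DERL2 had log2 fold changes of -0.17 (adjusted p = 0.0589) and -0.039 (adjusted p = 0.719).

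Of the 4 sensors and transcription factors, 2 fell, 0 rose and 2 did not pass the test, with a median log2 fold change of -0.25. By DESeq2, 0 rose as well, and 0 rose at an unadjusted p under 0.05. XBP1, the factor whose mRNA IRE1 splices, had an FPKM of 64.8, 50.3 and 56.0 in the NC libraries and of 42.9, 38.3 and 45.4 in the siEIF1 libraries. The groups did not overlap, and the counts fell by 25% (log2 fold change -0.41, standard error 0.078, adjusted p = 0.00215). The XBP1 call held with each library left out, with log2 fold changes from -0.50 to -0.31 and adjusted p-values up to 0.0181, but not with limma on log2(FPKM + 1) (adjusted p = 0.0919). Gene counts do not separate the spliced from the unspliced XBP1 form. ERN1 (IRE1 alpha), its splicing enzyme, had an FPKM of 0.75, 0.66 and 0.76 against 0.55, 0.48 and 0.64 (log2 fold change -0.36, standard error 0.094, adjusted p = 0.0148), and its call was lost without NC replicate 1, NC replicate 3 or siEIF1 replicate 2, with adjusted p-values up to 0.0746. ATF6 had a log2 fold change of -0.14 (adjusted p = 0.127), and CREB3L2, a related membrane-bound factor of secretory cells, one of 0.044 (adjusted p = 0.736).

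Related genes were also set against each other within each library, which removes any scaling shared by the library. The pairs were chosen after the values were seen and are given without a test. The FPKM ratio of the glucosidase II subunits, GANAB to PRKCSH, was 0.733, 0.683 and 0.676 in the NC and 1.14, 1.16 and 1.20 in the siEIF1 libraries, so the catalytic subunit passed from the lower to the higher FPKM. The CALR to CANX ratio was between 5.96 and 6.21 in the NC and between 7.70 and 8.55 in the siEIF1 group. For HSPA5 to HSP90B1 it was 2.99, 2.67 and 2.89 in the NC and 2.08, 2.07 and 2.17 in the siEIF1 libraries. Here the spread within the groups was small beside the gap between them, although HSPA5 alone varied more. The ERO1A to ERO1B ratio rose from a mean of 8.65 ± 0.667 (SD, n = 3) to 12.3 ± 0.386 (SD, n = 3), and the P4HB to PDIA6 ratio, with the PDIA6 overlap given above, from 0.711 ± 0.0437 to 0.885 ± 0.0328. The STT3A to STT3B ratio fell from 0.835 ± 0.0294 to 0.698 ± 0.0209 without overlap. The groups overlapped in the UGGT2 to UGGT1 and DERL1 to DERL2 ratios.

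**Figure D5:**
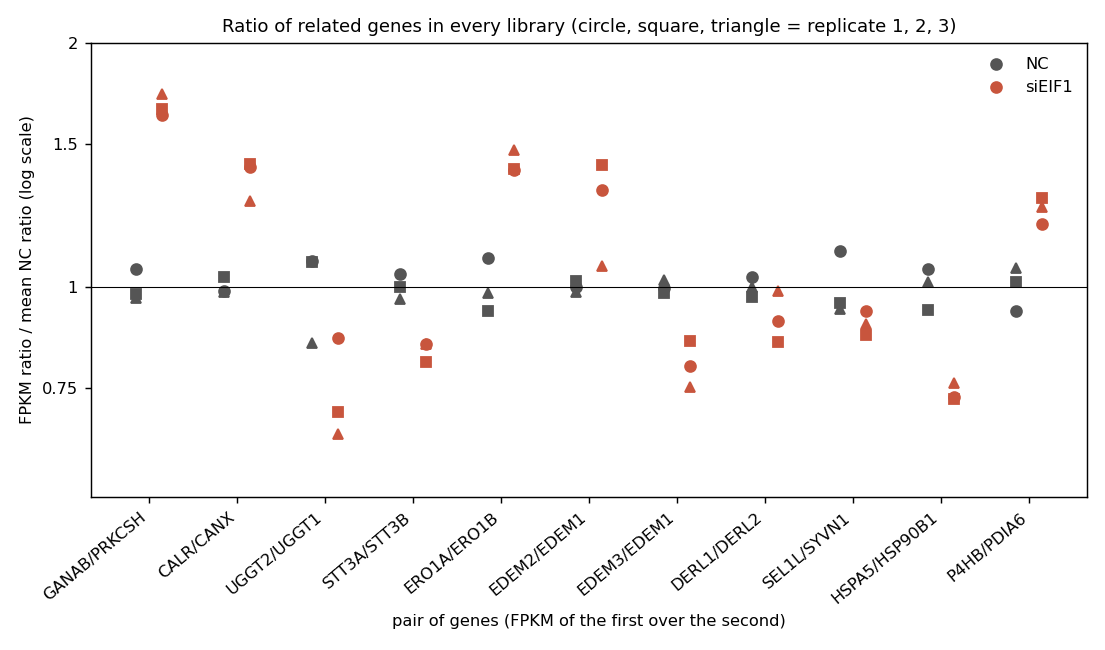
FPKM ratio of 11 pairs of related genes in each library, divided by the mean NC ratio of that pair (log scale), with NC in grey, siEIF1 in red and circles, squares and triangles for replicates 1, 2 and 3. The GANAB to PRKCSH ratio of the siEIF1 libraries lies highest, and the HSPA5 to HSP90B1 ratio lies below that of every NC library.

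The libraries of a group were not alike in these genes. On the CPM scale NC replicate 1 was the highest NC library in 34 of the 46 genes, against 36.8% of all tested genes and 41.9% of the tested genes counted 500 times or more on average. This held for 10 of the 12 chaperones and all 4 sensors. In the siEIF1 group, replicate 3 was the highest library for all 4 sensors, and replicate 2 was the lowest for 25 of the 46 genes, against 33.5% of all tested genes. When NC replicate 1 was left out, 12 genes were called higher and 5 lower. When siEIF1 replicate 2 was left out, these were 10 and 5. Of the 11 genes that rose, 2 lost their call when some library was left out, and of the 10 that fell, 5 did.

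Summed FPKM per class, in which the abundant members weigh most, did not overlap between the groups in 4 of the 5 classes. Of single genes, 37.1% of all tested and 46.8% of those at 500 counts or more were without overlap on the CPM scale. The disulfide isomerases summed to between 244 and 266 FPKM in the NC and between 276 and 287 FPKM in the siEIF1 libraries. The glycan enzymes summed to between 491 and 509 FPKM and between 524 and 542 FPKM. The degradation genes summed to between 85.7 and 90.8 FPKM in the NC and between 82.8 and 84.8 FPKM in the siEIF1 group, and the sensors to between 57.6 and 72.9 FPKM and between 44.8 and 53.2 FPKM. The chaperones overlapped, at 501 to 555 FPKM in the NC and 553 to 586 FPKM in the siEIF1 group.

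Each of the 4 gaps was lost or turned when the gene that added most to the difference was left out of its class, a step chosen after the values were seen. Without P4HB the disulfide isomerases overlapped, at 206 to 226 FPKM in the NC and 225 to 237 FPKM in the siEIF1 group. Without GANAB the glycan enzymes overlapped, at 456 to 471 FPKM and 460.2 to 475 FPKM. Without HERPUD1 the degradation sum turned, to between 62.9 and 65.96 FPKM in the NC and between 66.2 and 66.7 FPKM in the siEIF1 group. Without XBP1 the sensors overlapped, at 7.35 to 8.17 FPKM and 6.52 to 7.80 FPKM, and without CALR the chaperones still did, at 279 to 333 FPKM and 245 to 280 FPKM.

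The genes with an ERSE did not share a direction. Of the 8, CALR and CRELD2 rose, HSPA5 and XBP1 fell, and CANX, ERO1B, HSP90B1 and PDIA6 did not pass the test, with a median log2 fold change of 0.066. Of the 32 genes whose promoter window held no ERSE, 8 rose and 7 fell, with a median of -0.044. Of the 3 genes with an ERSE-II, HERPUD1 and HYOU1 fell and SDF2L1 did not pass the test. GANAB and CALU, which changed most among the well-counted genes, had none of these elements in their windows, which says only that the letters are not there.

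Other genes of the pathway, 113 in 5 lists outside the 46, were examined in the same fit. Of the 111 that could be tested, 15 rose and 19 fell (30.6% called), and 0 passed the fold change limit of 2 by edgeR, by DESeq2 or at an unadjusted p under 0.05. The called share was 20.6% over all tested genes and 28.6% over the well-counted ones (500 counts or more on average). The 111 genes were mostly well counted, with a median of 1401.7, and their share lay close to the second value. The counts per list that follow were not tested against a background. Among 24 other chaperones and prolyl isomerases 6 rose and 4 fell. MESD, the chaperone of LDL receptor family proteins, rose from 4.12 to 7.34 FPKM (log2 fold change 0.85, adjusted p = 3.77e-07), SERPINH1 (HSP47), the collagen chaperone, fell from 27.9 to 17.4 FPKM (log2 fold change -0.66, adjusted p = 8.97e-07), and FKBP10, a collagen prolyl isomerase, rose from 27.95 to 35.5 FPKM (log2 fold change 0.37, adjusted p = 1.35e-04). Of 13 other disulfide isomerases and oxidoreductases 1 rose and 0 fell by edgeR and by DESeq2, and at an unadjusted p under 0.05 these were 3 and 2. The gene that rose was PRDX4, the ER peroxiredoxin that uses hydrogen peroxide made by ERO1, from 33.9, 28.7 and 32.8 FPKM in the NC to 53.9, 53.3 and 51.8 FPKM in the siEIF1 libraries (log2 fold change 0.76, adjusted p = 2.33e-06). TMX2 and TXNDC5 followed by p-value, with log2 fold changes of -0.16 and 0.14 (adjusted p = 0.0677 and 0.0851).

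Of 32 genes of dolichol-linked glycan assembly and other transferase subunits, 2 rose and 4 fell. The smallest p-values were those of the transferase subunit OSTC (log2 fold change 0.22, adjusted p = 0.00639), the dolichol kinase DOLK (-0.34, adjusted p = 0.00843) and the glucosyltransferase ALG10B (-0.45, adjusted p = 0.0169). ALG10B is uncertain, since it has a near-identical copy in ALG10, and its call was lost when NC replicate 2 (adjusted p = 0.0819) or siEIF1 replicate 2 (adjusted p = 0.0623) was left out. Of 26 other degradation genes 2 rose and 6 fell, led by ERLIN2 (log2 fold change 0.41, adjusted p = 5.00e-05), the lectin OS9 (0.25, adjusted p = 0.00193) and the ubiquitin-conjugating enzyme UBE2G2 (-0.26, adjusted p = 0.00386). Of 16 tested genes among the other stress sensors and their processing, 4 rose and 5 fell. DDIT3 (CHOP), the proapoptotic factor downstream of PERK, fell from 85.8, 74.6 and 76.1 FPKM to 44.5, 41.5 and 44.7 FPKM (log2 fold change -0.84, standard error 0.058, adjusted p = 8.97e-07). The pseudokinase TRIB3, a target of DDIT3, and PPP1R15B, a regulatory subunit of the eIF2 alpha phosphatase, fell with log2 fold changes of -0.43 (adjusted p = 4.95e-04) and -0.36 (adjusted p = 9.84e-04).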

How the data were processed

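RNA-seq of 6 ARPE-19 libraries (3 NC, 3 siEIF1) was used, with groups and replicate numbers from the sample titles. The authors trimmed reads, aligned them to GRCh38 with HISAT2 and deposited uniquely mapped read counts per gene, not normalized, and FPKM values (fragments per kilobase of transcript, scaled to mapped fragments), rounded. The libraries were directional (the dUTP strand was not amplified), but the counting program, whether it used strand, and the annotation release are not given in the sources used here, so counts of overlapping genes are uncertain. Of the columns, 0 were left unmatched.

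Counts were filtered with filterByExpr, scaled by TMM and tested in edgeR 4.0.16 (quasi-likelihood, group only, R 4.3.3), with Benjamini-Hochberg adjustment over 16749 genes. A call is an adjusted p under 0.05. The standard error was derived from the F statistic. Depth ran from 26499929 to 31431479 counts, and p-values measure the spread between 3 libraries a group. Libraries of a group differed by more than counting noise (chi-square per degree of freedom 3.00 to 14.1). Alternatives were RLE and upper-quartile scaling, no count filter or at least 10 counts in every library, DESeq2 1.42.0, limma 3.58.1 on log2(FPKM + 1) and log2(FPKM + 0.1), the replicate block, an adjusted p under 0.01 and leaving out each library. The tests were also run on simulated counts with the same dispersion in every gene. That setting does not copy the uneven noise between these libraries.

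Gene positions and exon overlaps came from GENCODE release 44 (GRCh38), promoters from RefSeq (GRCh38.p14). The 46 genes and all lists were chosen with earlier results of these data known. Named are EIF1, all 46 genes and, in each other list, the 3 genes with the smallest p-values. Splicing was not analysed.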

Additional observations from a re-analysis of the deposited data

How the results depend on the processing

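No called gene of the 46 changed direction under any alternative run, and 12 of the 21 calls held under all of them, 14 with each library left out, 20 with DESeq2 (HYOU1 was lost). With limma on log2(FPKM + 1), 1397 genes were called in all against 3446, 3 of the ER genes were lower against 10, 0 passed the fold change limit and the sensors' median was -0.14. With log2(FPKM + 0.1) these were 1485 genes in all, 4 lower and 0 past the limit. Both FPKM fits tested the unfiltered table, and the cause was not tested. At an adjusted p under 0.01, 9 genes were higher and 5 lower.

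With libraries left out in turn, genes called in all ran from 2242 to 3472, ER genes called lower from 5 (without NC replicate 1 and without siEIF1 replicate 2) to 11, and higher from 9 to 12. Class medians ran from 0.17 to 0.29 for the disulfide isomerases, from -0.21 to -0.11 for degradation and from 0.028 to 0.087 for the glycan enzymes. Uncalled genes near 0 changed sign: EDEM1 ran from -0.081 to 0.035, ERO1B from -0.046 to 0.012, UGGT1 from -0.012 to 0.21, DERL2 from -0.081 to 0.013 and CREB3L2 from -0.032 to 0.091.

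The replicate numbers are shared by the groups but not stated to pair them. Same-numbered libraries deviated together with correlations of 0.149, 0.0946 and 0.128, and each correlated best with its own number, a hint from the data only. With the replicate block, 13 ER genes were called higher and 12 lower, all 21 calls were kept, and 4277 genes were called in all. The 3 genes with the lowest mean counts, DERL3 (70.5), SDF2L1 (156.0) and ERO1B (183.5), had the highest standard errors of the 46, from 0.10 to 0.18.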
